A study of Mus musculus with 10 samples.

Results

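The 10 genes described here mark the secretory cells of the airway lining and were measured in mouse lung tissue: the secretoglobins Scgb1a1, Scgb3a1 and Scgb3a2, the club cell enzyme Cyp2f2, the BPI-fold proteins Bpifa1 and Bpifb1, the gel-forming mucins Muc5b and Muc5ac, the antimicrobial lectin Reg3g and the antibody transporter Pigr. They were taken by name from a table of read counts for 54532 genes, and all 10 were found and passed the filter on low counts. The table held 10 RNA-seq libraries of lung tissue from wild-type (WT) mice in 3 groups: 3 libraries of Vehicle, 3 of LPS (lipopolysaccharide, a bacterial cell wall component that causes lung inflammation) and 4 of LPS+TSLP, in which recombinant TSLP (thymic stromal lymphopoietin, an epithelial cytokine) was given before LPS, as the study's title describes. Every group had the WT genotype, and doses, times, routes, age, sex and the number of animals behind a library are not given in the sources used here. Because the labels do not say that libraries came from separate animals, p-values measure the spread between these libraries, which may be technical. Sex-linked genes, given below, differed between LPS replicate 1 and the other LPS libraries, so the LPS libraries did not all come from the same animal. For Vehicle and LPS+TSLP this is not known. Levels are given as CPM, the counts of a gene per 1000000 counts of the library.

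Club cells line the smaller airways, secrete secretoglobins and carry cytochrome P450 enzymes that metabolise inhaled compounds. Goblet and gland cells of the larger airways release the mucins MUC5B and MUC5AC, which form the mucus gel, along with BPI-fold proteins that help keep the airway surface free of bacteria. Scgb3a1, Bpifa1 and Bpifb1 are known mostly from the upper and larger airways, whereas Scgb3a2 and Cyp2f2 are known from club cells down to the terminal bronchioles. In lung tissue these cells are a small part of the tissue, so that fewer secretory cells and less RNA in each of them cannot be told apart in the values below.

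Each library held between 16175172 and 18374461 counts. LPS+TSLP replicate 1 stood apart from the rest: mitochondrial genes took 13.13% of its counts, against 1.11% to 1.27% in Vehicle, 1.2% to 2.58% in LPS and 2.0% to 6.5% in the other LPS+TSLP libraries. Its summed level of 14 ciliated cell markers was the highest (1162 CPM, against 221.9 to 725 CPM elsewhere), and its summed levels of 12 alveolar type 2 markers (4456 CPM, against 7970 to 29460 CPM) and 8 neutrophil markers (119 CPM, against 373 to 2096 CPM) were the lowest. LPS replicate 1 differed from the others in sex-linked genes, with 190 CPM of Xist where no other library passed 0.455 CPM, and 0 counts of the Y-linked gene Ddx3y. Ddx3y also divided the other libraries by group, at 6.15 to 11.9 CPM in the 3 Vehicle libraries and 57.7 to 96.1 CPM in the LPS and LPS+TSLP libraries other than LPS replicate 1. Because LPS+TSLP replicate 1 stood apart, comparisons are given with all 10 libraries and without it. Leaving it out does not address the differences in Xist and Ddx3y. The part of all these differences in the results was not tested.

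Of the 6 members that ranged most widely between libraries, 4 had an entry in RefSeq's promoter table (Bpifa1, Bpifb1, Reg3g and Scgb3a1), and their promoters are shown so that genes with a like pattern can be set side by side. Each line gives the 250 bases before the gene's start, 5′ to 3′ on the gene's own strand in build GRCm38.p6. The windows lie at chr2:154142630-154142879 (plus strand) for Bpifa1, chr2:154190568-154190817 (plus strand) for Bpifb1, chr6:78468875-78469124 (minus strand) for Reg3g and chr11:49663345-49663594 (plus strand) for Scgb3a1. Capitals mark matches on either strand to TATAAA (the TATA box), TTCNNNGAA (bound by STAT factors), TTGCNNAA (C/EBP), TGTTTNC (FOXA), CAAGTG (NKX2-1) and the NF-kB consensus.
Bpifa1: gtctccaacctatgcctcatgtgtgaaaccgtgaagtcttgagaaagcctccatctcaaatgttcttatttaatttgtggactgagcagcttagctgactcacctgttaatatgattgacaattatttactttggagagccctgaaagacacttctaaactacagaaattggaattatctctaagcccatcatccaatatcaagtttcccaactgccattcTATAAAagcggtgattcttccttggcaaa
Bpifb1: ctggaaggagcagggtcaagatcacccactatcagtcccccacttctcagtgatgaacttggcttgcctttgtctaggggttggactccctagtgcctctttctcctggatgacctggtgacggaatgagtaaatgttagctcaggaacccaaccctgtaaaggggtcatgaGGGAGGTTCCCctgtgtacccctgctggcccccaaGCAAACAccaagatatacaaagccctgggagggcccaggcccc
Reg3g: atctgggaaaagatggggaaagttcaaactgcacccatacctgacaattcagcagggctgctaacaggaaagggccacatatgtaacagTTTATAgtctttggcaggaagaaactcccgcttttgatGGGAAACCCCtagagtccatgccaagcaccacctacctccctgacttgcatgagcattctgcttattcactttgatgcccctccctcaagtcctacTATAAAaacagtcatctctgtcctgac
Scgb3a1: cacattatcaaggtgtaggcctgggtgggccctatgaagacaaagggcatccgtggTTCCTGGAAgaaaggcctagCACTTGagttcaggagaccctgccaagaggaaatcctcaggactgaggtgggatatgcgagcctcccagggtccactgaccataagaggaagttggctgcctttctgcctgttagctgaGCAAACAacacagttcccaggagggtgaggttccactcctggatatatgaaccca
Bpifa1 had TATAAA beginning 29 bases before its start, and Reg3g had it 27 bases before. Reg3g also had a further match, on the other strand, beginning 161 bases before its start. Of 32851 promoter windows of the same length, 12.4% held TATAAA. An NF-kB match, held by 7.25% of windows, stood in Bpifb1, where 2 overlapping matches began 78 and 77 bases before the start, and in Reg3g, at 123 bases. The FOXA letters, in 17.8% of windows, were found in Bpifb1 and Scgb3a1. Scgb3a1 also held the STAT letters (7.02% of windows) and the NKX2-1 letters (11.6%), and the C/EBP letters (9.56%) were in none of the 4. No motif was shared by all 4 windows, and a match is only a match of letters. RefSeq's table held 6 of the 10 members, and it gave Bpifb1 a further start downstream that is not shown. No window is shown for Scgb1a1, Scgb3a2, Cyp2f2, Muc5b, Muc5ac and Pigr.

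LPS against Vehicle sets libraries with LPS beside those without it. LPS+TSLP against LPS sets those given TSLP first beside LPS alone, and LPS+TSLP against Vehicle covers both agents together. Vehicle also differed in Ddx3y from all other libraries but LPS replicate 1, and from LPS+TSLP in mitochondrial share. In the comparisons against Vehicle, the agents cannot be told apart from what else divided the groups. None of the 10 members passed the test in any of the 3 comparisons when all 10 libraries were used (edgeR's quasi-likelihood test, Benjamini-Hochberg adjusted p under 0.05 over 17139 genes). Over all genes tested, 24.9% were called in LPS against Vehicle, 0% in LPS+TSLP against LPS and 14.2% in LPS+TSLP against Vehicle. DESeq2 and limma-voom also called 0 members in each comparison. At an unadjusted p under 0.05 there was 1 member in LPS against Vehicle (Cyp2f2), 1 in LPS+TSLP against LPS (Scgb3a2) and 0 in LPS+TSLP against Vehicle. Over all genes the shares at that p were 39.6%, 8.1% and 33%, so the members did not exceed them in the comparisons against Vehicle, and 1 of 10 was near the share in LPS+TSLP against LPS. Without LPS+TSLP replicate 1, Scgb3a2 and Cyp2f2 fell in LPS and in LPS+TSLP, each against Vehicle, and no member rose. The plot of levels by group shows how the 10 genes divide: Scgb1a1 and Pigr overlapped between groups with ranges of 2.84-fold and 9.29-fold over all libraries, Scgb3a2 and Cyp2f2 separated LPS from Vehicle, and the other 6 ranged over 100-fold.

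**Figure D1:**
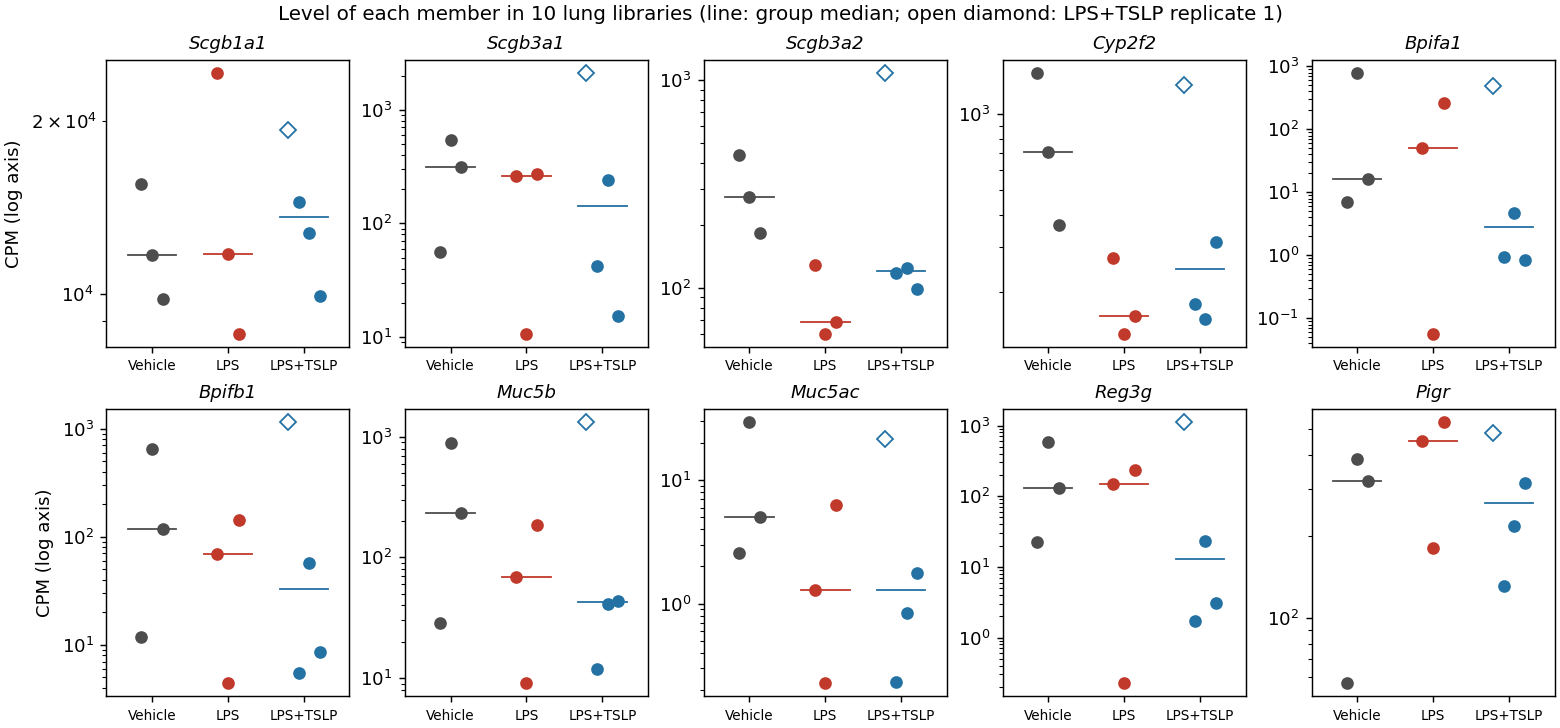
CPM of each member (log axis) in the Vehicle, LPS and LPS+TSLP libraries; points are libraries, horizontal lines group medians, and the open diamond is LPS+TSLP replicate 1. For Scgb3a2 and Cyp2f2 all 3 LPS points lie under all 3 Vehicle points, and for Bpifa1, Bpifb1, Muc5b, Muc5ac and Reg3g the points of each group are spread over more than 10-fold.

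Scgb1a1, the main secreted protein of club cells, was by far the most abundant member. It took 0.854% to 2.42% of all counts of a library and 68.0% to 96.7% of the counts of the 10 members together. Its level was 15530, 11700 and 9800 CPM in Vehicle, 24210, 11740 and 8537 CPM in LPS, and 19270, 14440, 12760 and 9929 CPM in LPS+TSLP. LPS held both the highest and the lowest library, and the 3 groups overlapped. The fitted log2 fold change was 0.36 (SE 0.43) in LPS against Vehicle (adjusted p = 0.563), −0.13 (SE 0.40) in LPS+TSLP against LPS (adjusted p = 0.954) and 0.23 (SE 0.41) in LPS+TSLP against Vehicle (adjusted p = 0.724). Scgb1a1 lies at chr19:9083636-9087958 on the minus strand (GRCm38). Without LPS replicate 1, its highest library, the value against Vehicle was −0.26, so the sign of this small difference rested on that library.

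Scgb3a2, a secretoglobin of club cells, separated LPS from Vehicle. It was at 436, 275 and 183 CPM in Vehicle and at 129, 59.9 and 68.7 CPM in LPS, a mean of 298 ± 128 (SD, n = 3) against 86.0 ± 37.7 (SD, n = 3). Every LPS library lay below every Vehicle library. In LPS+TSLP it was at 1080 CPM in replicate 1, the highest of all libraries, and at 117, 124 and 98.1 CPM in replicates 2 to 4, all below Vehicle. The fitted log2 fold change in LPS against Vehicle was −1.70 (SE 0.87, adjusted p = 0.170) with all libraries. Leaving out LPS+TSLP replicate 1, which is in neither group but shares the fit's estimate of spread, gave −1.68 with an SE of 0.38 (adjusted p = 0.00811). The gene lies at chr18:43764289-43767399 on the plus strand (GRCm38).

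Cyp2f2, a cytochrome P450 that activates naphthalene in club cells, followed the same order. Its level was 1447, 707 and 365 CPM in Vehicle and 272, 137 and 161 CPM in LPS, a mean of 840 ± 553 (SD, n = 3) against 190 ± 72.1 (SD, n = 3). Here too every LPS library was under every Vehicle library, and Vehicle itself spanned 3.96-fold. LPS+TSLP had 1300 CPM in replicate 1 and 179, 156 and 313 CPM in the other replicates. The fitted log2 fold change in LPS against Vehicle was −2.06 (SE 0.80, adjusted p = 0.0816), and −2.04 (SE 0.49, adjusted p = 0.0112) without LPS+TSLP replicate 1. Cyp2f2 lies at chr7:27119909-27133660 on the plus strand (GRCm38) and overlaps the antisense gene Gm15883. The strand setting of the counting is not given in the sources used here, so reads of the pair cannot be told apart; Gm15883 had 256 counts in all libraries together, against at least 2400 counts of Cyp2f2 in each library.

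These were the only 2 members whose LPS and Vehicle libraries did not overlap. Over all genes tested, 25.1% had every LPS library below every Vehicle library, and 14.4% were called lower in LPS without LPS+TSLP replicate 1, so 2 of 10 members is near the share of genes in general. Both values also passed in a fit of the LPS and Vehicle libraries alone (adjusted p = 0.0199 for Scgb3a2 and 0.0205 for Cyp2f2), where 13.3% of all genes were called lower. Leaving out Vehicle replicate 1, the highest Vehicle library for both, brought the values to −1.29 for Scgb3a2 and −1.38 for Cyp2f2 with the other 9 libraries in the fit, and neither passed. The summed neutrophil markers were at 373 to 1212 CPM in Vehicle and 1558 to 2096 CPM in LPS, and the 12 alveolar type 2 markers at 19850 to 29460 CPM and 7970 to 16480 CPM. The 10 general epithelial markers were at 1521 to 1608 CPM in Vehicle and 1166 to 1902 CPM in LPS. The 14 ciliated cell markers summed to 539 to 725 CPM in Vehicle and 222 to 537 CPM in LPS. In LPS+TSLP replicates 2 to 4 they summed to 281 to 355 CPM. In this sum every LPS library was below every Vehicle library, at the nearest by 536.6 against 539.1 CPM. Gene by gene these markers were mixed in LPS against Vehicle: 8 of 14 log2 fold changes were negative, with a median of −0.28. With all libraries 1 was called higher and 0 lower, where 24.9% of all genes were called. Without LPS+TSLP replicate 1, 1 was called higher and 3 lower, where 14.4% of all genes were called lower. In LPS+TSLP against Vehicle in that fit, 12 of the 14 were negative, with a median of −0.64. There 1 was called higher and 3 lower, where 7.9% of all genes were called lower. The 8 genes of the airway cartilage list summed to 21.1 to 26.5 CPM in Vehicle and 10.02 to 15.45 CPM in LPS. Chad made 16.9 to 23.8 CPM of this in Vehicle and 3.93 to 11.02 CPM in LPS. Only 3 of the 8 genes were tested, and they were mixed: 1 had a negative log2 fold change, and the median was 0.75. Without LPS+TSLP replicate 1, 1 of the 3 was called lower, where 14.4% of all genes were. With each library's trend with gene GC content removed, 2 were negative and the median was −0.2. The part of these shifts in the values of Scgb3a2 and Cyp2f2 was not tested.

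A ratio within a library does not depend on the library's total. Per 1000 counts of Scgb1a1, Scgb3a2 had 28.1, 23.5 and 18.7 counts in Vehicle and 5.34, 5.10 and 8.05 in LPS. LPS+TSLP replicates 2 to 4 had 8.12, 9.74 and 9.88, whereas replicate 1 had 56.0. Cyp2f2 per 1000 Scgb1a1 counts was 93.2, 60.4 and 37.3 in Vehicle, 11.2, 11.6 and 18.8 in LPS, and 67.4, 12.4, 12.2 and 31.5 in LPS+TSLP replicates 1 to 4. For both genes, all LPS libraries and the LPS+TSLP libraries other than replicate 1 were below all Vehicle libraries. Counts of Cyp2f2 per count of Scgb3a2 were 1.99 to 3.32 in Vehicle and 2.10 to 2.34 in LPS, and 1.20, 1.52, 1.25 and 3.19 in LPS+TSLP replicates 1 to 4. These ratios are given as a description, with no test.

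**Figure D2:**
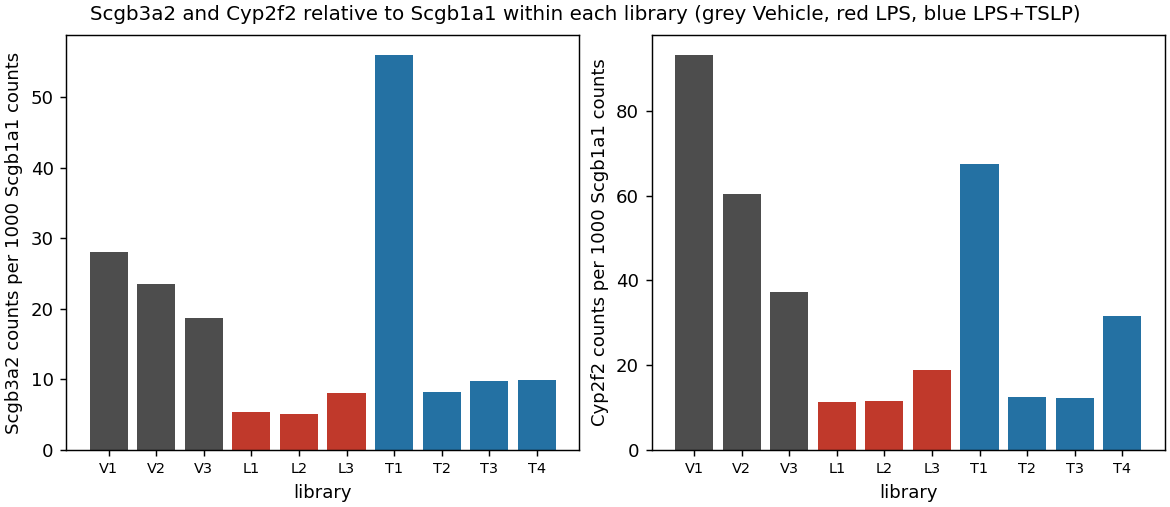
Counts of Scgb3a2 (left) and Cyp2f2 (right) per 1000 counts of Scgb1a1 in each library, with V for Vehicle, L for LPS, T for LPS+TSLP and the replicate number. The LPS bars, at 5.10 to 8.05 for Scgb3a2 and 11.2 to 18.8 for Cyp2f2, are under all Vehicle bars, and LPS+TSLP replicate 1 reaches 56.0 and 67.4.

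Scgb3a1, the secretoglobin of the larger airways, did not follow Scgb3a2. It was at 55.9, 545 and 311 CPM in Vehicle, 263, 10.6 and 274 CPM in LPS, and 2102, 41.8, 241 and 15.3 CPM in LPS+TSLP. Each group held both high and low libraries, and the groups overlapped throughout. Its log2 fold change in LPS against Vehicle was −0.64 (SE 1.53, adjusted p = 0.786). Scgb3a1 lies at chr11:49663610-49665118 on the plus strand (GRCm38).

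Bpifa1 (SPLUNC1), a secreted surfactant-like protein of the upper airways, had the widest spread of all. Its level was 7.08, 782 and 16.6 CPM in Vehicle, 51.3, 0.0569 and 263 CPM in LPS, and 485, 0.934, 4.72 and 0.851 CPM in LPS+TSLP. LPS replicate 2 held 1 count of it and Vehicle replicate 2 held 14377 counts. The SD of its log2 CPM was 3.61 within Vehicle and 5.58 within LPS, where the median over 15221 genes was 0.22 and 0.34. The fitted log2 fold change in LPS against Vehicle was −1.31 with an SE of 2.45 (adjusted p = 0.725), and without Vehicle replicate 2 it was 3.20, so its sign rested on 1 library.

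Bpifb1 (LPLUNC1), the longer relative secreted by goblet and gland cells, lies 41.6 kb from Bpifa1 on chromosome 2, at chr2:154190818-154220369, with Bpifa1 at chr2:154142880-154149219, both on the plus strand (GRCm38). It was at 11.8, 649 and 118 CPM in Vehicle, 69.8, 4.44 and 144 CPM in LPS, and 1146, 5.43, 56.6 and 8.51 CPM in LPS+TSLP. The highest and lowest libraries were those of Bpifa1 with a change of order at the top. In LPS against Vehicle its log2 fold change was −1.76 (SE 1.92, adjusted p = 0.526), and 0.25 without Vehicle replicate 2. The pair did not keep a constant ratio: Bpifa1 counts per Bpifb1 count ran from 0.0128 in LPS replicate 2 to 1.83 in LPS replicate 3.

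Muc5b, the mucin made in healthy airways, was at 28.5, 881 and 232 CPM in Vehicle, 69.0, 9.11 and 185 CPM in LPS, and 1323, 11.8, 41.3 and 43.6 CPM in LPS+TSLP. Muc5ac, the mucin known for its rise in allergic inflammation, was at 2.57, 29.6 and 4.99 CPM in Vehicle, 1.29, 0.228 and 6.26 CPM in LPS, and 21.8, 0.233, 0.833 and 1.76 CPM in LPS+TSLP. For both mucins Vehicle replicate 2 and LPS+TSLP replicate 1 were the top libraries and the groups overlapped. The log2 fold changes in LPS against Vehicle were −2.05 (SE 1.70, adjusted p = 0.394) for Muc5b and −2.19 (SE 1.51, adjusted p = 0.304) for Muc5ac. Muc5ac rested on few counts, with 4 in LPS replicate 2 and 4 in LPS+TSLP replicate 2. Per kilobase of exon, Muc5b was above Muc5ac in 10 of 10 libraries, by 7.97-fold in Vehicle replicate 1 to 43.7-fold in LPS+TSLP replicate 1. The 2 genes are neighbours on chromosome 7, with Muc5ac at chr7:141788972-141819231 and Muc5b at chr7:141839070-141873084 on the plus strand (GRCm38), 19.8 kb apart with no gene between them.

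Reg3g, a lectin that binds the wall of Gram-positive bacteria, had 22.6, 579 and 132 CPM in Vehicle, 150, 0.228 and 234 CPM in LPS, and 1115, 1.69, 23.1 and 3.10 CPM in LPS+TSLP. LPS replicate 2 stood far below the other LPS libraries, with 4 counts against 2675 and 4219. Its log2 fold change in LPS against Vehicle was −0.85 (SE 2.17, adjusted p = 0.801), and 0.83 without Vehicle replicate 2. Reg3g lies at chr6:78466269-78468872 on the minus strand (GRCm38).

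Pigr, the receptor that carries IgA across the epithelium, was at 57.2, 388 and 322 CPM in Vehicle, 451, 181 and 531 CPM in LPS, and 486, 131, 219 and 315 CPM in LPS+TSLP. Its low libraries were Vehicle replicate 1 and LPS+TSLP replicate 2, and the groups overlapped. Its fitted log2 fold change in LPS against Vehicle was 0.69 (SE 0.66, adjusted p = 0.463). In Vehicle, replicates 2 and 3 were both high, and its range over all libraries was 9.29-fold. The gene lies at chr1:130826684-130852249 on the plus strand (GRCm38).

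Scgb3a1, Bpifa1, Bpifb1, Muc5b, Muc5ac and Reg3g formed a set by their range: each differed by more than 100-fold between its highest and lowest library, whereas the other 4 members did not. In all 6, the 2 highest libraries were LPS+TSLP replicate 1 and Vehicle replicate 2, and LPS replicate 2 was the lowest. Only the place of Vehicle replicate 2 was particular to these 6. LPS+TSLP replicate 1 was also among the 2 highest libraries of the other 4 members, and LPS replicate 2 was also the lowest for Scgb3a2 and Cyp2f2. Their summed level was 128, 3467 and 814 CPM in Vehicle, 604, 24.7 and 1105 CPM in LPS, and 6193, 61.9, 368 and 73.1 CPM in LPS+TSLP. The high and low libraries cut across the 3 groups. The set was chosen by these values, which are a description with no test.

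**Figure D3:**
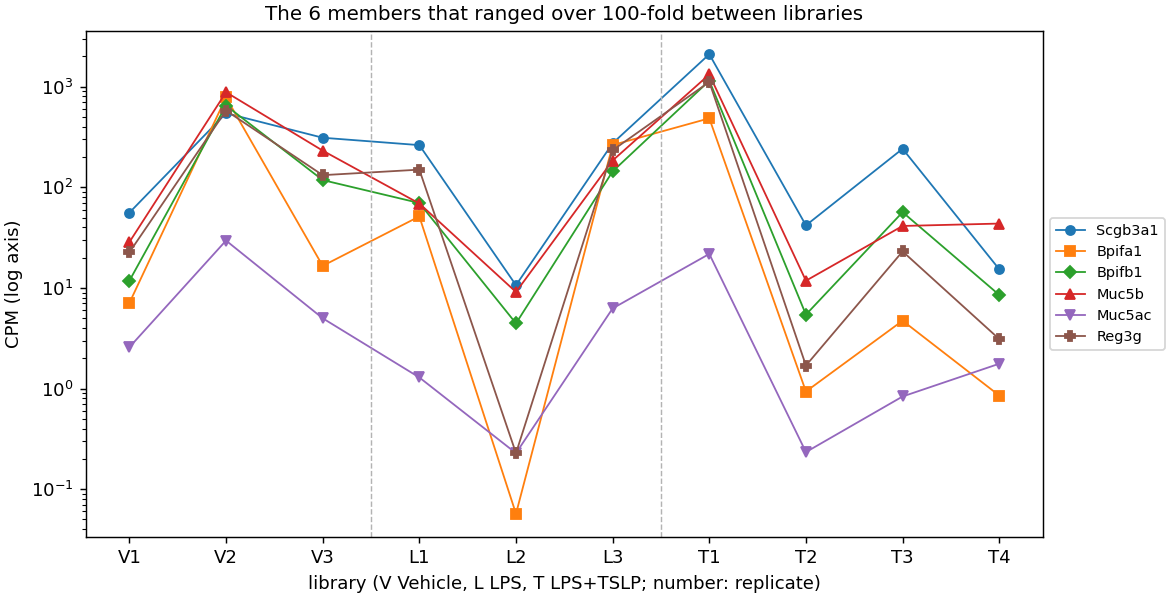
CPM (log axis) of the 6 members with a range over 100-fold, in each library (V for Vehicle, L for LPS, T for LPS+TSLP, with the replicate number); dashed lines divide the groups. All 6 lines peak in V2 and T1 and reach their lowest point in L2.

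The markers of ciliated cells, the neighbours of secretory cells in the conducting airway, were at 725, 698 and 539 CPM in Vehicle, 537, 222 and 389 CPM in LPS, and 1162, 281, 306 and 355 CPM in LPS+TSLP. Their highest library, LPS+TSLP replicate 1, and their lowest, LPS replicate 2, were those of the 6 genes, but Vehicle replicate 1 was above Vehicle replicate 2 in ciliated markers while the 6 genes differed 27.0-fold between them. Basal cell markers, at 3.97 to 19.3 CPM, were highest in Vehicle replicate 2, where Krt5 was at 1.80 CPM, and Krt5 was at no more than 0.720 CPM elsewhere. Of the airway cartilage list, Acan was at 0 in all libraries and Col2a1 at no more than 0.175 CPM, while the sum reached 132 CPM in LPS+TSLP replicate 1 through Chad (128 CPM). The thyroid markers were at 1.28 to 3.37 CPM, and the plasma cell markers, at 414 to 949 CPM in the other libraries, were at 89.3 CPM in LPS+TSLP replicate 1. The part of tissue make-up in the values of the 6 genes was not tested.

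**Figure D4:**
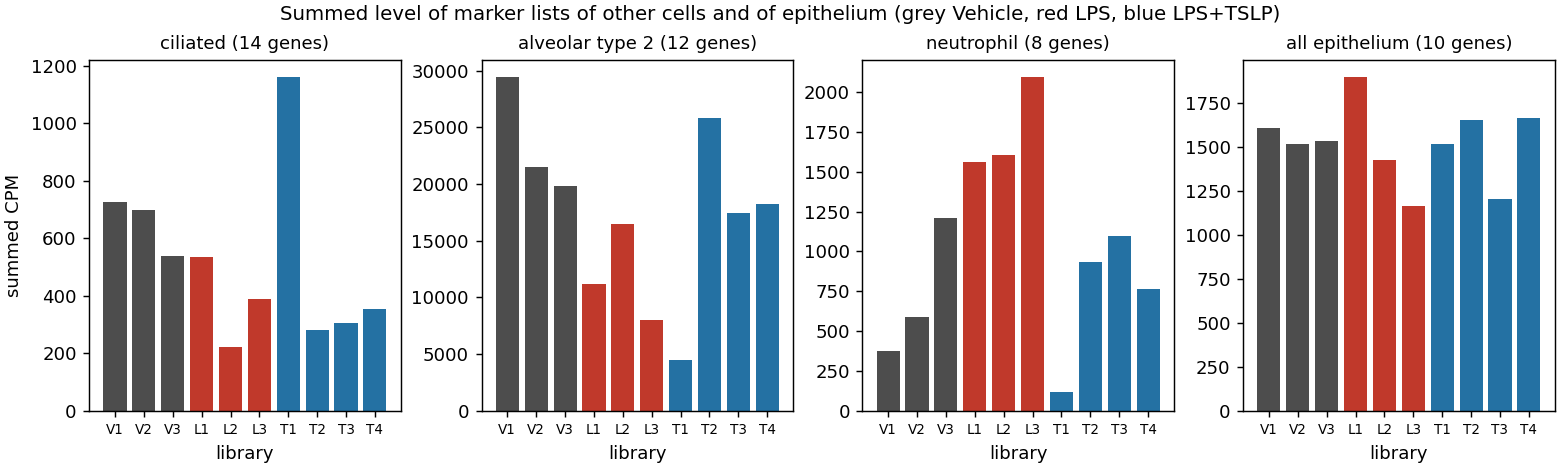
Summed CPM of marker lists of ciliated cells, alveolar type 2 cells, neutrophils and epithelium in general, by library (V for Vehicle, L for LPS, T for LPS+TSLP, with the replicate number). LPS+TSLP replicate 1 is the highest in ciliated markers (1162 CPM) and the lowest in alveolar type 2 (4456 CPM) and neutrophil (119 CPM) markers, with general epithelial markers (1517 CPM) inside the range of the rest.

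Compared per kilobase of exon, mean levels in Vehicle ran from 25930 CPM per kb for Scgb1a1 to 1.15 CPM per kb for Muc5ac. Scgb1a1 was above the next member, Scgb3a1 (508 CPM per kb), in 10 of 10 libraries. Cyp2f2 (415), Scgb3a2 (339), Bpifa1 (174), Reg3g (116), Bpifb1 (71.8) and Pigr (63.6 CPM per kb) followed. Between Scgb3a1 and Pigr no neighbouring pair kept its order in all 10 libraries, with the higher of the pair in Vehicle being higher in only 2 to 8 of 10. Pigr was above Muc5b (25.4 CPM per kb), and Muc5b above Muc5ac, in 10 of 10 libraries.

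In LPS+TSLP against LPS no member passed the test, with all libraries or without LPS+TSLP replicate 1. Over all genes 0% were called by edgeR, with 1388 genes at an unadjusted p under 0.05, 34 genes called by DESeq2 and 0 by limma-voom. No member had groups that did not overlap, where 7.42% of all genes did. The median log2 fold change of the 10 members was 1.29, with 2 negative, beside 0.021 over all genes. Without LPS+TSLP replicate 1 it was −1.23, with 8 negative, beside 0.001 over all genes. Bpifa1 went from 0.25 (SE 2.27) to −5.61 (SE 2.45, adjusted p = 0.505), and Reg3g from 1.16 (SE 2.08) to −3.85 (SE 1.91, adjusted p = 0.531). Muc5b went from 2.03 (SE 1.64) to −1.51 (SE 1.20), and Muc5ac from 1.25 (SE 1.42) to −1.52 (SE 1.25). Scgb3a2, at 2.02 (SE 0.85, adjusted p = 0.601) with all libraries, was at 0.30 (SE 0.37, adjusted p = 0.786) without that library, and Cyp2f2 went from 1.33 (SE 0.75) to 0.08 (SE 0.48). In the 3 remaining LPS+TSLP libraries these 2 club cell genes were thus at levels that overlapped LPS alone. The single library LPS+TSLP replicate 1 set the sign for 6 of the 10 members: Scgb3a1, Bpifa1, Bpifb1, Muc5b, Muc5ac and Reg3g.

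LPS+TSLP against Vehicle shares the Vehicle libraries with the first comparison, so its values stand beside those above and are not separate evidence. With all libraries the member median was 0.23, beside 0.027 over all genes, and no member's groups were without overlap, where 31.7% of genes had none. Without LPS+TSLP replicate 1 the median was −2.69 with 9 of 10 values negative, beside −0.004 over all genes. Scgb3a2 then fell by 1.38 (SE 0.38, adjusted p = 0.0282) and Cyp2f2 by 1.96 (SE 0.49, adjusted p = 0.0212) on the log2 scale, where 7.9% of all genes were called lower. The mitochondrial share of these 3 LPS+TSLP libraries (2.0% to 6.5%) was above that of all Vehicle libraries (1.11% to 1.27%), and its part in these values was not tested. Muc5ac was at −3.70 (SE 1.28, adjusted p = 0.0728), Muc5b at −3.55 (SE 1.29, adjusted p = 0.085) and Bpifa1 at −6.91 (SE 2.58, adjusted p = 0.0948), and none of these passed. Bpifa1, Cyp2f2, Muc5ac and Scgb3a2 had all 3 remaining LPS+TSLP libraries below all Vehicle libraries, as had 21.6% of all genes. Bpifa1 was at 0.851 to 4.72 CPM in those libraries, against 7.08 CPM in the lowest Vehicle library. When Vehicle replicate 2 was left out as well, a choice made after seeing the data, Scgb3a2 was at −1.44 (adjusted p = 0.0686) and Cyp2f2 at −2.05 (adjusted p = 0.055). In that fit Muc5ac was at −1.97 (adjusted p = 0.2745), Muc5b at −1.98 (adjusted p = 0.3329) and Bpifa1 at −2.41 (adjusted p = 0.4379). The larger values of these genes above thus rested in part on Vehicle replicate 2.

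**Figure D5:**
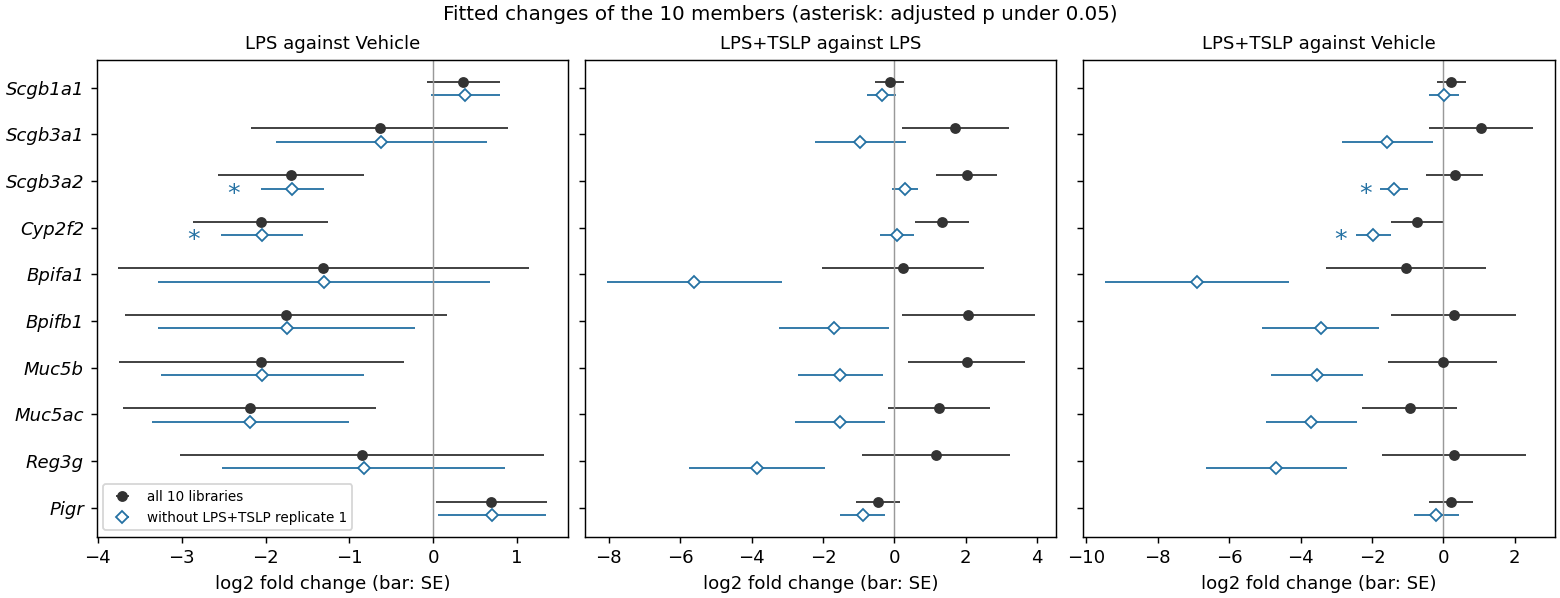
Fitted log2 fold change of each member with its SE in the 3 comparisons, with all 10 libraries (filled circles) and without LPS+TSLP replicate 1 (open diamonds); asterisks mark adjusted p under 0.05. Scgb3a2 and Cyp2f2 carry the asterisks, against Vehicle only, and in LPS+TSLP against LPS the 6 wide-ranging members lie on opposite sides of 0 in the 2 fits.

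Other genes of the secretory programme were followed in 6 lists, to be read beside the 24.9% of all genes called in LPS against Vehicle and their median log2 fold change of 0.008; no list was tested against other genes. Of 29 tested club cell enzymes and secretory genes, 1 rose and 2 fell in LPS against Vehicle (10.3%, under the share of all genes), with a median of −0.45. Hp (haptoglobin) rose by 1.36 (SE 0.36, adjusted p = 0.0205), Ephx1 (epoxide hydrolase) fell by 1.43 (SE 0.40, adjusted p = 0.0262), and Cbr2 (carbonyl reductase) fell by 1.76 (SE 0.58, adjusted p = 0.0469). Without LPS+TSLP replicate 1, 1 rose and 5 fell, beside 14.4% of all genes called lower, and with each library's trend with gene GC content removed Cbr2 did not pass (adjusted p = 0.082). Cbr2 was at 3124, 1500 and 812 CPM in Vehicle and 743, 410 and 356 CPM in LPS, so that, like Cyp2f2, its LPS libraries lay below Vehicle and Vehicle replicate 1 was its highest.

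Among 20 transcription factors of secretory cells, 2 rose and 4 fell in LPS against Vehicle (30.0%, near the share of all genes), with a median of −0.23. Nfib rose by 1.84 (SE 0.26, adjusted p = 0.00219). Cebpa, a factor of club and alveolar cell maturation, fell by 1.26 (SE 0.20, adjusted p = 0.00319), Elf5 by 0.94 (SE 0.26, adjusted p = 0.0261) and Foxa1, a forkhead factor of airway epithelium, by 1.22 (SE 0.35, adjusted p = 0.0291; 0.0716 with the GC trend removed). Cebpa was at 267, 202 and 179 CPM in Vehicle, 88.4, 92.8 and 74.7 CPM in LPS, and 109, 92.8, 103 and 104 CPM in LPS+TSLP. It thus stayed low in LPS+TSLP replicate 1, where Scgb3a2 and Cyp2f2 were high, and it fell in LPS+TSLP against Vehicle by 1.04 (SE 0.19, adjusted p = 0.00699).

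Of 30 other mucins and mucin granule genes 21 were tested, 2 rose and 1 fell (14.3%), with a median of −0.40. C1galt1, which builds the core of mucin sugars, rose by 1.31 (SE 0.31, adjusted p = 0.0129) and its chaperone C1galt1c1 by 0.71 (SE 0.23, adjusted p = 0.0447). Neither call held once the GC trend was removed (C1galt1 adjusted p = 0.997, C1galt1c1 adjusted p = 0.051). B3gnt6, another enzyme of mucin sugars, fell by 2.95 (SE 0.70, adjusted p = 0.0135), from 1.55 ± 0.652 (SD, n = 3) to 0.187 ± 0.116 CPM (SD, n = 3). Without LPS+TSLP replicate 1, 2 rose and 4 fell of the 21. In that fit 14.4% of all genes were called lower, a share to set beside the 4 that fell and not the 2 that rose. Of the BPI-fold, REG and secretoglobin relatives only 4 of 22 were tested, and 1 fell: Bpifb5, by 2.29 (SE 0.60, adjusted p = 0.0195).

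The antimicrobial and IgA transport list had 5 risen and 1 fallen of 20 tested (30.0%, near the share of all genes), with a median of 0.08. Ccl20, a chemokine of inflamed epithelium, rose by 4.95 (SE 1.04, adjusted p = 0.00868), the protease inhibitor Slpi by 2.28 (SE 0.49, adjusted p = 0.00906) and Wfdc18 by 2.83 (SE 0.65, adjusted p = 0.0122), while the immunoglobulin chain Ighm fell by 1.27 (SE 0.35, adjusted p = 0.0248). Ccl20 was at 1.09, 4.03 and 12.5 CPM in Vehicle and at 304, 50.7 and 148 CPM in LPS. Bpifa1, Bpifb1, Reg3g and Pigr, which serve airway defence too, did not pass in the same libraries. Of 22 receptors upstream of secretory induction, 3 rose and 4 fell (31.8%, near the share of all genes), with a median of 0.18. Il10rb, a chain of the IL-22 receptor, rose by 1.21 (SE 0.25, adjusted p = 0.0085). Tlr5, the flagellin receptor, fell by 2.16 (SE 0.48, adjusted p = 0.011), Notch1 by 1.78 (SE 0.43, adjusted p = 0.0144) and Notch2 by 0.99 (SE 0.25, adjusted p = 0.0179), the last pair being receptors that set the choice between secretory and ciliated cells. Notch2 had an adjusted p of 0.0556 with the GC trend removed. In LPS+TSLP against LPS, 0 genes of the 6 lists passed.

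Genes most like each member were found by the correlation of log2 CPM over the 10 libraries, among 15211 genes, as a description; the libraries share their groups and their tissue make-up. Muc5b was most like Tacr1, a tachykinin receptor (r = 0.985), and Muc5ac most like Nwd1 (r = 0.983). Bpifb1 was most like Tacr1 (r = 0.971), Tff2, a trefoil peptide of mucus (r = 0.966), and Agr2, a folding enzyme for mucins (r = 0.957), and Scgb3a1 was also most like Tff2 (r = 0.944). Tff2 was at 5.08, 33.1 and 19.3 CPM in Vehicle, 15.9, 2.67 and 15.1 CPM in LPS, and 147, 2.16, 15.2 and 4.26 CPM in LPS+TSLP. Bpifa1 and Reg3g had the same leading pair, Mfsd4b1 (r = 0.974 and 0.978) and Ltf, the antimicrobial lactoferrin (r = 0.962 and 0.961).

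The club cell pair had other companions. Cyp2f2 was most like Rnf186 (r = 0.975), Acss1 (r = 0.974) and Hlf (r = 0.968), and Scgb3a2 most like Gmpr (r = 0.974), Pcp4l1 (r = 0.970) and Prkag2 (r = 0.964). Scgb1a1 was most like Cox7a2l (r = 0.973), Skp1a (r = 0.971) and Nenf (r = 0.969), and Pigr most like Hspb7 (r = 0.973). No gene was among the 3 most alike of both a club cell member and 1 of the 6 wide-ranging members.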

How the data were processed

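Total RNA of wild-type mouse lung was extracted with Trizol and sequenced on Illumina libraries, per the labels' protocols. The authors deposited 1 table of raw read counts per gene for 10 libraries. CASAVA, HISAT2, HTSeq 0.6.0 and the builds GRCm38 and mm10 are named per the submitters' processing notes, and the annotation release and strand setting are not given in the sources used here. Of 54532 genes, 54495 matched the GRCm38 annotation, and 27 names that had turned into dates were restored by gene ID. Columns were tied to samples by their descriptions.

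Counts were fitted with edgeR 4.0.16 (R 4.3.3; filterByExpr, TMM, robust quasi-likelihood F-test, 2-sided, 7 residual degrees of freedom) in 1 fit of 10 libraries, with Benjamini-Hochberg adjustment over the 17139 genes tested and a threshold of 0.05. The SE is the log2 fold change divided by the root of F. Levels are CPM of all counts, and groups were called without overlap on TMM-scaled CPM. At this depth 1 count is about 0.06 CPM. The fitting script was tested on simulated data.

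The members and lists were chosen with earlier results of these data known. The genes named are all members; up to 4 called genes with the smallest adjusted p in LPS against Vehicle from each of 6 lists of related genes (the 2 with the largest mean CPM where none was called); and, of the 3 genes with the highest Pearson r of log2 CPM to each member (mean CPM at least 1), those given. Tff2, Cbr2, Cebpa and Ccl20 are given by library, and Chad, Krt5, Acan, Col2a1, Xist and Ddx3y were named after their values were seen. Marker lists of 8 cell types were summed. Alternatives were DESeq2 1.42.0 (size factors and Wald test), limma-voom (limma 3.58.1), scaling by upper quartiles or by totals, a filter of 1 CPM in 3 libraries or none, groups compared alone, a replicate block, GC and length trends removed, dropping haemoglobin, mitochondrial and immunoglobulin genes, and libraries left out. Promoters are RefSeq windows (GRCm38.p6) searched on both strands for 6 motifs.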

Additional observations from a re-analysis of the deposited data

Results flagged for a closer look

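Among the 4 LPS+TSLP libraries, replicate 1 lay farther from the other 3 than Dixon's 95% limit for 4 values, set on its gap to the nearest library as a share of the whole range, for 8 of the 10 members. It was at 2102 CPM for Scgb3a1, 1080 CPM for Scgb3a2, 1300 CPM for Cyp2f2, 485 CPM for Bpifa1, 1146 CPM for Bpifb1, 1323 CPM for Muc5b, 21.8 CPM for Muc5ac and 1115 CPM for Reg3g. The gap was 0.863 of the range for Cyp2f2 and 0.992 for Bpifa1, and for Scgb1a1 (0.517) and Pigr (0.481) it was under the limit. Chance marks about 1 in 20 groups in this way where values are normally distributed. Here the limit was applied to CPM, which ranged up to 658.6-fold within these 4 libraries (Reg3g). The ratio was not taken on log2 CPM. The 1 in 20 rate is therefore not established for these genes, and no conclusion is drawn from the number marked. The 8 genes also come from the same library, so they are not 8 separate events. Groups of 3 were not tested.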

How the results depend on the processing

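No member passed in LPS+TSLP against LPS under any alternative run. In LPS against Vehicle, 2 members passed (Scgb3a2 and Cyp2f2, both lower) with a replicate block, in the groups compared alone, without LPS replicate 1 and LPS+TSLP replicate 1, and without Vehicle replicate 2 and LPS+TSLP replicate 1 (added after seeing the data). Leaving out 1 library gave 0 to 2 members there and 0 to 2 in LPS+TSLP against Vehicle, with 2 only without LPS+TSLP replicate 1, and 2 passed in the latter without LPS replicate 1 and LPS+TSLP replicate 1. Over all genes, 7.58% to 13.3% were called lower under these settings in LPS against Vehicle (14.4% without LPS+TSLP replicate 1), and 7.9% to 8.63% in LPS+TSLP against Vehicle. No label says that equal replicate numbers mark paired libraries, so the replicate block has no basis in the labels. Libraries of equal number had correlations of −0.34 to 0.40, over 0.1 in 3 of 9 pairs. These values are too few to tell whether libraries were paired. The block gave 2 members in LPS against Vehicle. Over all genes, DESeq2 called 34 in LPS+TSLP against LPS, where edgeR called 0. Of 720 member values under alternatives, 82 changed sign, none of them past the threshold with all libraries. In 2 of these the value passed after the change, both for Scgb3a2 in LPS+TSLP against Vehicle. The cause was not tested. The counts limit Bpifa1, Reg3g and Muc5ac most, each at 1 to 4 counts in LPS replicate 2.

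In LPS against Vehicle the log2 values that changed sign were these. Scgb1a1 was at −0.24 with the length trend removed and −0.23 without LPS replicate 1 and LPS+TSLP replicate 1. Without Vehicle replicate 2 and LPS+TSLP replicate 1, Scgb3a1 was at 0.10, Bpifa1 at 3.21, Bpifb1 at 0.26 and Reg3g at 0.83. Leaving out 1 library gave −0.26 to 0.69 for Scgb1a1, −1.11 to 0.11 for Scgb3a1, −3.17 to 3.20 for Bpifa1, −2.60 to 0.25 for Bpifb1 and −1.49 to 0.83 for Reg3g.

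In LPS+TSLP against LPS, the replicate block gave 0.13 for Scgb1a1, −1.02 for Bpifa1 and −0.02 for Reg3g. The length trend removed gave 0.14 for Scgb1a1, and limma-voom −0.75 for Bpifa1 and −0.17 for Reg3g. Without LPS replicate 1 and LPS+TSLP replicate 1 the values were 0.28 for Scgb1a1, −0.56 for Scgb3a1, −5.94 for Bpifa1, −1.70 for Bpifb1, −1.62 for Muc5b, −1.81 for Muc5ac and −3.69 for Reg3g. Without Vehicle replicate 2 and LPS+TSLP replicate 1 they were −0.96 for Scgb3a1, −5.62 for Bpifa1, −1.69 for Bpifb1, −1.49 for Muc5b, −1.49 for Muc5ac and −3.85 for Reg3g. Leaving out 1 library gave −0.44 to 0.51 for Scgb1a1, −0.95 to 2.20 for Scgb3a1, −5.61 to 2.19 for Bpifa1, −1.68 to 2.97 for Bpifb1, −1.51 to 3.13 for Muc5b, −1.52 to 2.96 for Muc5ac and −3.85 to 1.86 for Reg3g.

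In LPS+TSLP against Vehicle, the replicate block gave −0.58 for Scgb3a1, −0.04 for Scgb3a2, −1.59 for Bpifb1, −3.23 for Reg3g and −0.01 for Pigr. With limma-voom Scgb3a1 was at −0.61, Scgb3a2 at −0.45, Bpifb1 at −1.19 and Reg3g at −2.65. The length trend removed gave −0.11 for Scgb1a1, −0.06 for Scgb3a2 and 0.39 for Muc5b, and the GC trend removed −0.16 for Scgb3a2 and 0.16 for Muc5b. Muc5b was at 0.04 with DESeq2 size factors and with the DESeq2 Wald test, and at 0.06 with upper quartile factors. Without LPS replicate 1 and LPS+TSLP replicate 1 the values were −1.58 for Scgb3a1, −1.36 for Scgb3a2, −3.43 for Bpifb1, −4.68 for Reg3g and −0.16 for Pigr. Without Vehicle replicate 2 and LPS+TSLP replicate 1 they were −0.02 for Scgb1a1, −0.86 for Scgb3a1, −1.44 for Scgb3a2, −1.44 for Bpifb1 and −3.03 for Reg3g. Leaving out 1 library gave −1.57 to 1.84 for Scgb3a1, −1.38 to 0.74 for Scgb3a2, −6.91 to 3.51 for Bpifa1, −3.43 to 2.36 for Bpifb1, −3.55 to 1.58 for Muc5b, −3.70 to 0.81 for Muc5ac, −4.68 to 2.02 for Reg3g and −0.24 to 0.66 for Pigr.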
